A study of Homo sapiens with 9 samples.

Results

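UHMK1, PLOD2, PDCD4, FAM91A1, TMTC3 and LSM3 are 6 genes that fell strongly when a hepatoma line was transfected with an siRNA against YAP. The line is labelled Hep3B. The 6 genes are not known as targets of YAP acting with TEAD factors. They were selected on their measured fall on the YAP siRNA arrays, mainly against nonsense siRNA, so the size and direction of that fall are given below as a description and not as a finding. Each of the 6 was represented by 1 probe set, out of 18417 genes measured, and 0 of them stood in a list of 22 published YAP/TEAD target genes. The 9 arrays fell into 3 groups of 3: cells transfected with YAP-specific siRNA, cells transfected with nonsense siRNA, and untreated cells. Per the labels, cells grew in full medium for 24 h, and those given an siRNA were transfected by the Oligofectamine protocol and kept for a further 24 h. Untreated cells had no siRNA, and since the protocol text counts the later hours from transfection, how long they were kept is not stated separately. Total RNA was made into biotinylated cRNA for the arrays.

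YAP is the transcriptional coactivator at the end of the Hippo pathway. It does not bind DNA itself but acts through TEAD factors, and in liver its excess drives growth of the organ and of hepatocellular carcinoma. A small interfering RNA (siRNA) is loaded into an Argonaute protein and cuts the transcript it matches, and its seed bases can also lower other transcripts, as those of a microRNA do, which is called an off-target effect. Neither siRNA's sequence is given in the sources used here, so a match between them and the transcripts of the 6 genes was not tested.

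The labelled cell type was checked first. Of 8 hepatocyte and hepatoma marker genes 7 were measured, and all 7, albumin and alpha-fetoprotein among them, had mean log2 signals between 8.76 and 12.4, above the median of 7.31 over genes. Of 9 markers of leukocytes, endothelium, fibroblasts and bile duct cells, 3 reached that median, and their means lay between 5.99 and 8.39. The fibroblast collagen gene COL1A2 was the 1 marker of these 16 measured that passed in any of the 3 comparisons, with a rise of 0.43 (SE 0.0602, adjusted p = 0.000538 by limma) on YAP siRNA against nonsense siRNA arrays. Its part in the results below was not tested. The cell line field names Hep3B and was followed, although the titles start with HUH. These markers are of hepatoma cells in general and cannot tell such lines apart, so the name was not tested. The samples of a group are not said to come from separate cultures, so p-values measure the spread between these samples, which may be technical. In RNA from whole cultures, less RNA per cell and fewer cells that express a gene cannot be told apart.

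Along the main axis of the deviations from group means, which held 38.2% of their variance, the lowest-scoring array of each group was picked. These are called below the 3 arrays that stood apart. YAP siRNA replicate 3 scored -0.54, nonsense siRNA replicate 2 scored -0.55 and untreated replicate 3 scored -0.25. The other 6 arrays scored between 0.06 and 0.34, so untreated replicate 3 deviated less than the highest of them. Any data would give such a pick, and leaving out these 3 arrays narrows the spread along this axis. Values with single arrays or these 3 left out are given beside several of the results below.

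All 6 genes were lower on every YAP siRNA array than on every control array. Such a gap, with all 3 YAP siRNA arrays below all 6 control arrays, was found in 3.61% of all genes, and since the members were chosen for their fall nothing is read from their share. By the linear model fitted over all genes with limma, 6 of 6 passed as lower than nonsense siRNA at an adjusted p under 0.05, where 2.61% of all genes did, and 6 of 6 passed as lower than untreated cells, where 1.46% did. The median difference of the 6 genes was -0.89 on the log2 scale against nonsense siRNA, beside 0.01 over all genes, and -0.71 against untreated cells, beside -0.01.

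**Figure D1:**
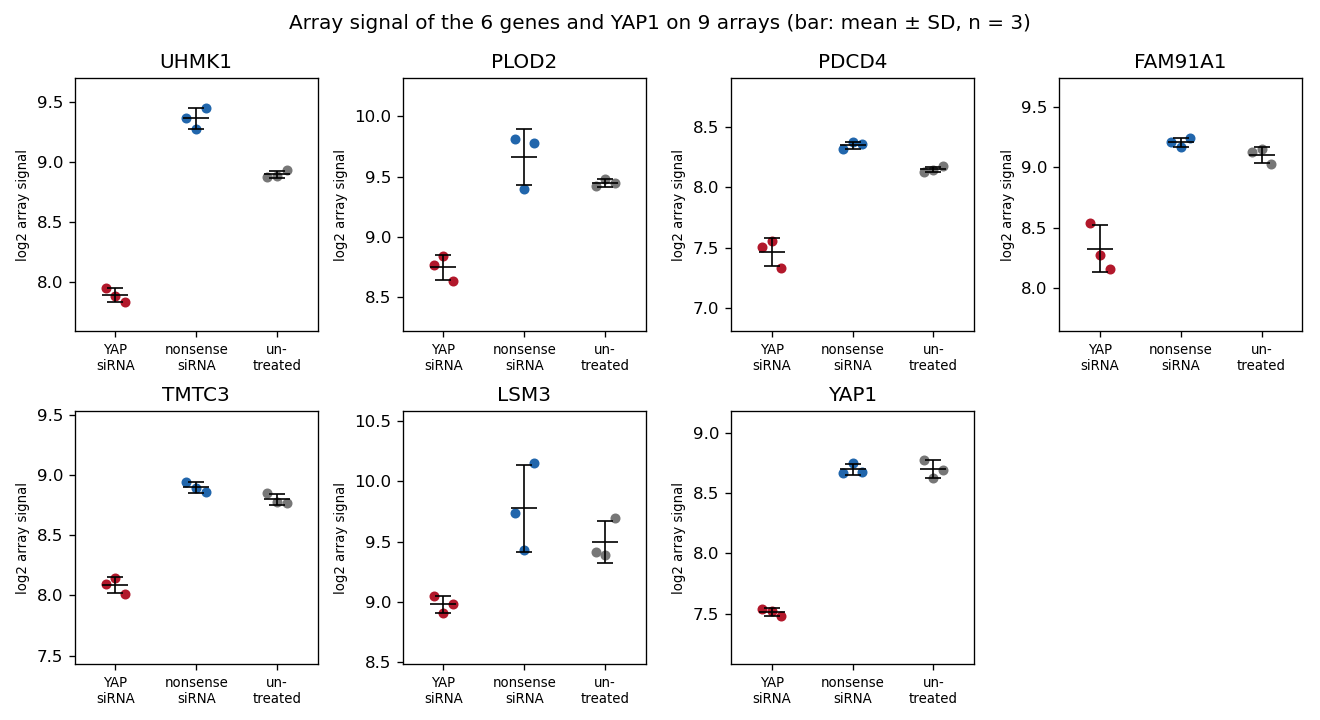
Log2 array signal (vertical axes, each spanning the same number of log2 units) of the 6 genes and YAP1 on the 3 YAP siRNA, 3 nonsense siRNA and 3 untreated arrays, with points for arrays and bars for the mean ± SD (n = 3). In every panel the YAP siRNA points lie below all control points, and the nonsense siRNA points lie clear above the untreated points for UHMK1 and PDCD4, barely so for FAM91A1 and TMTC3, and overlap them for the rest.

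UHMK1 encodes a serine/threonine kinase with an RNA recognition motif that phosphorylates the splicing factor SF1 and the cell cycle inhibitor p27. Its log2 signal was 7.95, 7.89 and 7.84 on the YAP siRNA arrays, against 9.36, 9.28 and 9.45 on the nonsense siRNA arrays and 8.87, 8.89 and 8.93 on the untreated arrays. The 3 groups did not overlap, and the untreated arrays lay between the others. The difference was -1.47 against nonsense siRNA (SE 0.0571), the lowest of all 18417 genes, and -1.003 against untreated cells, the 3rd lowest. YAP siRNA cells thus held 36.1% of the nonsense siRNA level and 49.9% of the untreated level.

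PLOD2 encodes lysyl hydroxylase 2, which hydroxylates lysines in the telopeptides of collagen and so sets the kind of cross-link that forms, and it is a known target of hypoxia-inducible factor. It stood at 8.76, 8.84 and 8.64 on the YAP siRNA arrays, against 9.81, 9.39 and 9.78 on the nonsense siRNA arrays and 9.42, 9.48 and 9.44 on the untreated arrays. The control groups overlapped, since nonsense siRNA replicate 2 lay below all 3 untreated arrays. The differences of -0.91 (SE 0.0892) and -0.70 left 53.1% of the nonsense siRNA level and 61.5% of the untreated level.

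PDCD4 encodes an inhibitor of translation that holds the helicase eIF4A, and it is removed after phosphorylation by S6 kinase. Signals of 7.51, 7.55 and 7.33 on the YAP siRNA arrays stood against 8.32, 8.37 and 8.36 on the nonsense siRNA arrays and 8.13, 8.15 and 8.17 on the untreated arrays. As for UHMK1 the groups did not overlap and the untreated arrays lay in the middle. PDCD4 differed by -0.89 from nonsense siRNA (SE 0.0598) and by -0.69 from untreated cells, which left 54.1% and 62.1% of those levels.

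FAM91A1 encodes an adaptor that works with TBC1D23 and WDR11 in capturing endosome-derived vesicles at the trans-Golgi. Its signals spread more on the YAP siRNA arrays, at 8.54, 8.27 and 8.16, than on the nonsense siRNA arrays, at 9.21, 9.17 and 9.25, or on the untreated arrays, at 9.13, 9.15 and 9.03. The control groups came close to each other but did not overlap. The difference was -0.89 against nonsense siRNA (SE 0.0776) and -0.78 against untreated cells, or 54.1% and 58.3% of those levels.

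TMTC3 encodes an endoplasmic reticulum protein that adds O-linked mannose to cadherins. It measured 8.10, 8.14 and 8.01 on the YAP siRNA arrays, 8.94, 8.90 and 8.86 on the nonsense siRNA arrays and 8.85, 8.78 and 8.77 on the untreated arrays. The control groups just failed to overlap, and the spread within each group was small. TMTC3 differed by -0.81 from nonsense siRNA (SE 0.0543) and by -0.71 from untreated cells, which left 56.9% and 61.0% of the control levels.

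LSM3 encodes a subunit of the LSM rings, which bind U6 RNA in the nucleus and, with LSM1, direct decapping of mRNA in the cytoplasm. Its signals were 9.05, 8.91 and 8.98 on the YAP siRNA arrays, 9.74, 9.43 and 10.2 on the nonsense siRNA arrays and 9.41, 9.39 and 9.70 on the untreated arrays. The control groups overlapped, and nonsense siRNA replicate 3 was the highest array. The difference of -0.80 against nonsense siRNA had the widest error of the 6 genes (SE 0.129), and the difference from untreated cells was -0.52, or 57.6% and 69.7% of those levels. LSM3 kept its place among the lower genes in 17 of 18 other settings against nonsense siRNA, the exception being every probe set tested, and in 9 of 18 against untreated cells. Leaving out 1 array ended the call against untreated cells in 7 of 9 fits. The difference was then -0.56, -0.48 or -0.52 without YAP siRNA replicate 1, 2 or 3, -0.56, -0.58 or -0.42 without untreated replicate 1, 2 or 3, and -0.52 without nonsense siRNA replicate 1. The other 5 genes passed against both controls under all 18 settings.

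Without the 3 arrays that stood apart, 6 of 6 genes still passed as lower against each control. Of all 18417 genes 772 then passed as lower than nonsense siRNA and 580 as lower than untreated cells. The differences from nonsense siRNA were then -1.48 for UHMK1, -0.99 for PLOD2, -0.81 for PDCD4, -0.82 for FAM91A1, -0.78 for TMTC3 and -0.97 for LSM3. Those from untreated cells were -0.96, -0.65, -0.61, -0.73, -0.69 and -0.42 in the same order of genes.

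Of the genes that fell at least as much as LSM3 against nonsense siRNA, those outside the 6 were TNFRSF21 at -1.39, YAP1 at -1.18, LIN7C at -1.07, E2F5 at -0.96 and MCL1 at -0.95. LSM3 was the 11th lowest gene, and just past it came CLDN12 at -0.77 and HIPK3 at -0.77. Against untreated cells the 6 genes were spread more widely in the order, at the 3rd place for UHMK1, the 6th for FAM91A1, the 8th for TMTC3, the 9th for PLOD2, the 10th for PDCD4 and the 23rd for LSM3.

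**Figure D2:**
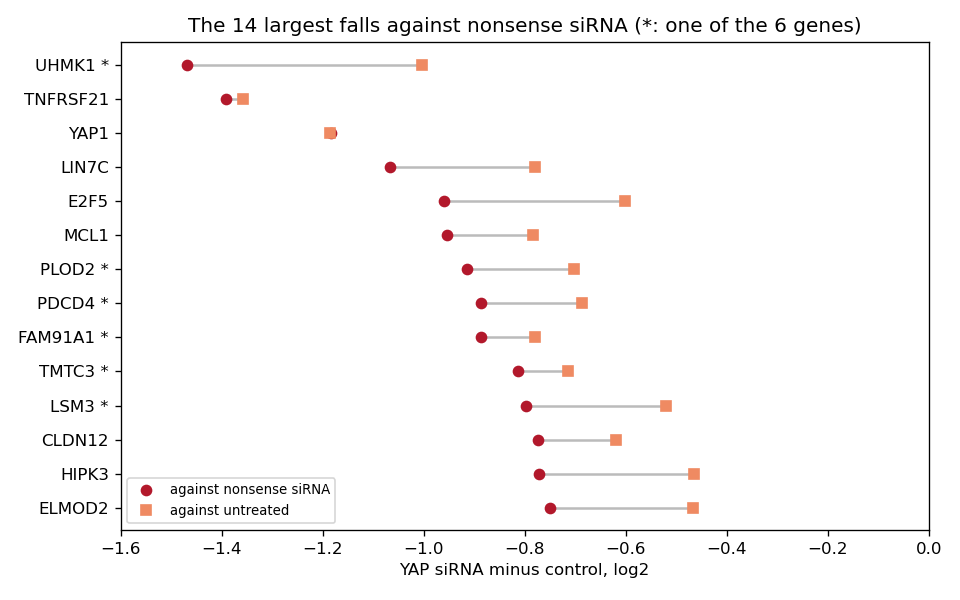
Difference between YAP siRNA and each control (horizontal axis, log2) for the 14 genes with the largest falls against nonsense siRNA, with circles for nonsense siRNA and squares for untreated cells as the control; an asterisk marks the 6 genes. The distance between the marks is widest for UHMK1, at -1.47 and -1.003, and close to 0 for YAP1, at -1.18 and -1.19.

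YAP1, the transcript the siRNA was made against, gave a scale for these falls. Its signal was 7.54, 7.52 and 7.48 on the YAP siRNA arrays, against 8.66, 8.75 and 8.68 on the nonsense siRNA arrays and 8.78, 8.62 and 8.69 on the untreated arrays. The control groups overlapped, and YAP siRNA left 44.0% of either control level. Only UHMK1 among the 6 differed more from nonsense siRNA than YAP1 did, by 0.28 (difference of the changes -0.28, SE 0.0755). The SEs of changes set against that of YAP1, here and below, come from the plain spread of the arrays compared. They are not the limma SEs given elsewhere. Against untreated cells the order was the other way round, and the change of UHMK1 was smaller than that of YAP1 by 0.18 (SE 0.0546). Whether UHMK1 ranks above the target of the siRNA therefore turned on the control.

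The other 5 genes changed less than YAP1 against either control. Against nonsense siRNA their changes fell short of that of YAP1 by 0.27 (SE 0.167) for PLOD2, 0.30 (SE 0.0555) for PDCD4, 0.30 (SE 0.108) for FAM91A1, 0.37 (SE 0.0476) for TMTC3 and 0.39 (SE 0.233) for LSM3. These shortfalls leaned on single nonsense siRNA arrays for PLOD2 and LSM3. Without nonsense siRNA replicate 2 they were 0.11 for PLOD2 and 0.19 for LSM3, and without all 3 arrays that stood apart 0.15 and 0.17. Without nonsense siRNA replicate 3 the shortfall of LSM3 was 0.59. Against untreated cells the shortfall lay between 0.41 for FAM91A1 and 0.67 for LSM3. Array by array, YAP siRNA replicate 3 had the lowest signal of the group for YAP1, UHMK1, PLOD2, PDCD4, FAM91A1 and TMTC3, and replicate 2 for LSM3; replicate 3 is also the array that stood apart.

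The nonsense siRNA and untreated groups were compared to ask whether the choice of control mattered for a gene, since the difference between the controls is also the difference between the 2 falls. All 6 genes had higher means on the nonsense siRNA arrays, by a median of 0.21 on the log2 scale beside -0.02 over all genes. These nonsense siRNA arrays also took part in choosing the members, so the test is not independent of the choice, and a gene high on them by chance was more likely to be chosen. UHMK1 passed, at 0.46 (SE 0.0571, limma adjusted p = 0.00225), or 138.0% of the untreated level, and was 1 of 6, where 0.337% of all genes passed as higher and 0.277% as lower. It passed in 17 of 18 other settings, with the exception of every probe set tested (adjusted p = 0.0669).

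PLOD2 at 0.21 (adjusted p = 0.216), PDCD4 at 0.20 (0.116), LSM3 at 0.28 (0.254), FAM91A1 at 0.11 (0.442) and TMTC3 at 0.10 (0.319) did not pass by limma between the control groups. Without nonsense siRNA replicate 2, PLOD2 was at 0.35 (adjusted p = 0.00690) and LSM3 at 0.45 (0.0193), and both passed. In that fit 1031 of all 18417 genes passed as higher, beside 62 with all arrays. LSM3 was at 0.09 (0.738) without nonsense siRNA replicate 3, and PLOD2 at 0.14 (0.573) without nonsense siRNA replicate 1. With the 3 arrays that stood apart left out, UHMK1 (0.53), PLOD2 (0.34), PDCD4 (0.20) and LSM3 (0.55) passed, at adjusted p-values of at most 0.0305. There 1555 of all genes passed as higher and 764 as lower. YAP1 differed by 0.00 between the controls (adjusted p = 0.987). The fall against untreated cells came to between 65.3% of the fall against nonsense siRNA for LSM3 and 87.9% for FAM91A1, with 68.3% for UHMK1.

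**Figure D3:**
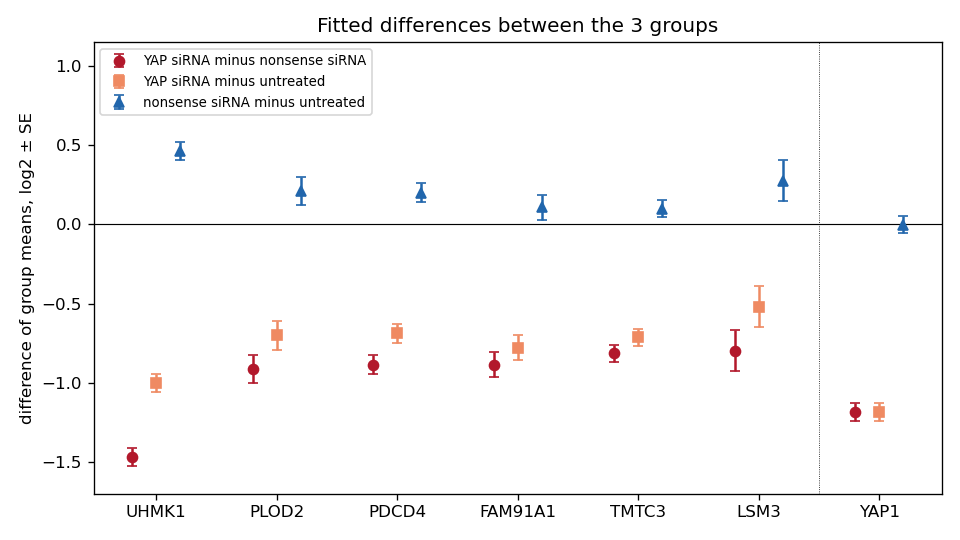
Fitted differences of group means (vertical axis, log2, bars ± SE) for the 6 genes and YAP1, with circles for YAP siRNA minus nonsense siRNA, squares for YAP siRNA minus untreated and triangles for nonsense siRNA minus untreated. The triangle of UHMK1 stands at 0.46 while that of YAP1 stands at 0.00.

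The known YAP/TEAD targets gave smaller falls. ANKRD1, a cardiac ankyrin repeat gene, differed by -0.48 from nonsense siRNA and by -0.42 from untreated cells. AMOTL2, an angiomotin family gene, differed by -0.43 and -0.51, the matricellular gene CCN1 by -0.39 and -0.64, and its relative CCN2 by -0.27 and -0.33. Of the 22 listed targets 6 passed as lower and 1 as higher against each control. Of all genes 2.61% were lower and 1.92% higher than nonsense siRNA, and 1.46% were lower and 1.63% higher than untreated cells. The higher gene was NT5E, named after its values were seen. Its call against untreated cells held with any array left out, while that against nonsense siRNA was lost in several such fits. The medians of the list were -0.13 against nonsense siRNA and -0.12 against untreated cells. Against nonsense siRNA 3 passed as lower without nonsense siRNA replicate 3. There were 7 without nonsense siRNA replicate 2 and 7 without the 3 arrays that stood apart, where 816 and 772 of all genes passed as lower. The 6 genes were picked from the largest falls and this list was not, so the distance between them follows from the choice.

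Promoter sequence was searched for the TEAD core motif GGAATG, read on both strands, because TEAD factors carry YAP to DNA. From the RefSeq promoter table of build GRCh38.p14, 5 of the 6 genes (UHMK1, PLOD2, PDCD4, TMTC3 and LSM3) were searched. The 250 bases before each start were read. FAM91A1 was not searched, and entries of named genes on 1 chromosome were left out. UHMK1 alone of these 5 held the motif, 137 bases before 1 of its 2 listed starts and 150 bases before the other, while 11.9% of all 35116 promoters held it. Of the known targets named above, CCN1 was not searched. Among the others, CCN2 held the motif 3 times and ANKRD1 2 times. AMOTL2 held it 1 time before 1 of its 2 listed starts and 0 times before the other. YAP1 itself held it 1 time. These promoters are shown from UHMK1 (chr1:162497555-162497804, plus strand), CCN2 (chr6:131951373-131951622, minus strand) and ANKRD1 (chr10:90921088-90921337, minus strand), to set the gene with the lowest difference beside the 2 known targets with more than 1 match, with GGAATG in capitals:
UHMK1: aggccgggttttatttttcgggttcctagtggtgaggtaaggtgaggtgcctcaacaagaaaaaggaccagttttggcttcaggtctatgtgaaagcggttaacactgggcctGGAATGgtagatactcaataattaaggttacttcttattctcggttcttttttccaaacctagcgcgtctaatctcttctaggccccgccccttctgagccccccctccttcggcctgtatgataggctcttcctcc
CCN2: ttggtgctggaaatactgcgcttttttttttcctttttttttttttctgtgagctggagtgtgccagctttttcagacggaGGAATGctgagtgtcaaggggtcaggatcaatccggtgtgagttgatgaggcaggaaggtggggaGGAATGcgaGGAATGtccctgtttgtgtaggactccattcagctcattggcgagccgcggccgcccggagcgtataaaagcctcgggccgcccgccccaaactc
ANKRD1: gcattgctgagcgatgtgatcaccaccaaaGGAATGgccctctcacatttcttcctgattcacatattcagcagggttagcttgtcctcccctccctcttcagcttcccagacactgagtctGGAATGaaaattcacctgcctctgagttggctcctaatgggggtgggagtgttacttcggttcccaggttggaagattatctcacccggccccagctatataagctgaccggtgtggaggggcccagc

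A form of the core of the hypoxia response element, ACGTG on either strand, was searched too, since PLOD2 is a known target of hypoxia-inducible factor. Other forms of the core were not searched. PLOD2 held it 200 and 146 bases before its start, PDCD4 held it 151 bases and LSM3 25 bases before theirs, and 18.5% of all promoters held it. The PLOD2 promoter (chr3:146161185-146161434, minus strand) is shown with both matches in capitals, as the member with a known hypoxia response:
PLOD2: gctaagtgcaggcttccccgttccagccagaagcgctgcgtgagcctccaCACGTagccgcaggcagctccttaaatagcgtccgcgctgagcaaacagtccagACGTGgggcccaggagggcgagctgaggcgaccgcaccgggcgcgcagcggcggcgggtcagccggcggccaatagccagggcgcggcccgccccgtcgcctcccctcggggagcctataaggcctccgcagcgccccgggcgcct

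A match of letters is a description and not a site in use, and a promoter without one says only that these letters are not in this window.

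Genes that share a complex, family or pathway with the 6 were then examined, in 7 lists with 97 of 105 genes measured. Against nonsense siRNA 3 of the 97 passed as lower and 4 as higher (3.09% and 4.12%), where 2.61% of all genes were lower and 1.92% higher. Against untreated cells 3 passed as lower and 2 as higher, where 1.46% of all genes were lower and 1.63% higher. The median difference of the 97 genes was -0.01 against nonsense siRNA and 0.03 against untreated cells, close to that of all genes. Between nonsense siRNA and untreated cells 0 of the 97 passed by limma, where 0.277% of all genes were lower and 0.337% higher. An unadjusted p under 0.05 was found for 22 of the 97. The share of all genes under it is not given here, so nothing is read from that count. These counts leaned on single arrays: against nonsense siRNA 17 passed without nonsense siRNA replicate 2, and 4 without nonsense siRNA replicate 1 or YAP siRNA replicate 3. Calls over all 18417 genes moved too, with 816 lower without nonsense siRNA replicate 2, beside 480 with all arrays. Against untreated cells 2 passed without YAP siRNA replicate 1 or untreated replicate 1, and 3 without YAP siRNA replicate 2 or untreated replicate 2. Between the controls 14 passed without nonsense siRNA replicate 2 and 1 without YAP siRNA replicate 3. Without nonsense siRNA replicate 2, 439 of all genes passed there as lower and 1031 as higher, beside 51 and 62 with all arrays.

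**Figure D4:**
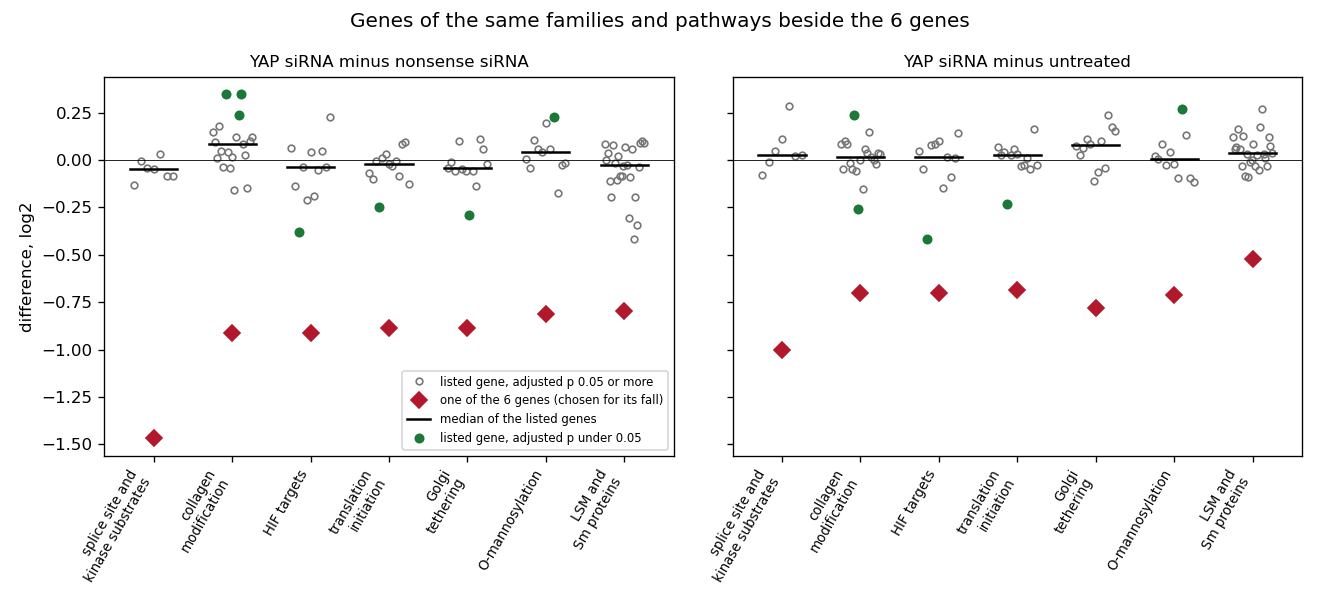
Difference in log2 signal (vertical axis) of the genes of each list, for YAP siRNA minus nonsense siRNA (left) and YAP siRNA minus untreated (right), with filled circles for listed genes that passed, open circles for those that did not, lines for list medians and diamonds for UHMK1, PLOD2 (shown at 2 lists), PDCD4, FAM91A1, TMTC3 and LSM3. In each list the diamond, which was chosen for its fall, lies below all circles.

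Of the lysyl and prolyl hydroxylases and their partners in collagen maturation, 19 genes measured, 0 passed as lower than nonsense siRNA and 1 as lower than untreated cells. PLOD1 and PLOD3, the other lysyl hydroxylase genes, were at 0.15 (adjusted p = 0.202) and 0.10 (adjusted p = 0.437) against nonsense siRNA by limma and at 0.08 and -0.05 against untreated cells. Against nonsense siRNA 3 of the list's genes passed as higher and 0 as lower: the collagen chaperone gene SERPINH1 rose by 0.35 (SE 0.0701), the cross-linking oxidase gene LOX by 0.35 (SE 0.0614) and FKBP10, whose protein assists lysyl hydroxylation, by 0.24 (SE 0.0565). Against untreated cells SERPINH1 was at 0.15 (adjusted p = 0.332 by limma) and FKBP10 at 0.04 (adjusted p = 0.803), and neither passed. LOX rose there by 0.24 and LOXL2, another lysyl oxidase gene, fell by 0.26. Against nonsense siRNA LOXL2 was at -0.04 (adjusted p = 0.83 by limma) and did not pass. Between nonsense siRNA and untreated arrays it was at -0.22 (adjusted p = 0.0876) and did not pass. The call of LOX against untreated cells held in 7 of 18 settings and that of LOXL2 in 13, and FKBP10 passed against nonsense siRNA in 14 and SERPINH1 in 16. List medians were 0.08 and 0.02.

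Of 11 measured targets of hypoxia-inducible factor, NDRG1, a stress-responsive gene, fell by 0.38 against nonsense siRNA (SE 0.0541, limma adjusted p = 0.000556) and by 0.41 against untreated cells (0.000441), and it passed in all 18 settings of each comparison. The other 10 did not pass against either control. Without nonsense siRNA replicate 2, the mitophagy gene BNIP3 and the oxygen sensor gene EGLN1 also passed as lower than nonsense siRNA. The glucose transporter gene SLC2A1 passed there as higher, and all 3 are named after their values were seen. In that fit these 3 genes did not pass against untreated cells, and BNIP3 passed as higher on nonsense siRNA than on untreated arrays. More of all genes passed as lower than nonsense siRNA in that fit than with all arrays. The median of the list was -0.04 against nonsense siRNA and 0.02 against untreated cells.

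Translation initiation genes around PDCD4, 13 of 15 measured, held 1 that passed. EIF4G2, which encodes a relative of the scaffold eIF4G, fell by 0.25 against nonsense siRNA (SE 0.0564, limma adjusted p = 0.0188) and by 0.23 against untreated cells (0.0360), in 14 and 11 of 18 settings. EIF4A1, the helicase gene whose product PDCD4 binds, has no probe set annotated to it alone, so no value is given. EIF4A2, its close relative, named after its values were seen, was at -0.07 against nonsense siRNA and 0.07 against untreated cells and did not pass.

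For the Golgi tethering genes, 12 of 14 measured, the partners of FAM91A1 did not pass: TBC1D23 was at -0.01 (limma adjusted p = 0.974) and WDR11 at -0.04 (0.792) against nonsense siRNA. The golgin gene GCC2 fell by 0.29 against nonsense siRNA (SE 0.0563, adjusted p = 0.00598), in all 18 settings, but was at -0.06 against untreated cells (0.628). Among 11 of 13 O-mannosylation genes TMTC1, TMTC2 and TMTC4, the paralogs of TMTC3, were at 0.01, -0.04 and 0.10 against nonsense siRNA and did not pass. POMK, a kinase of O-mannose glycans, rose by 0.23 (SE 0.0512, adjusted p = 0.0177) and against untreated cells by 0.27 (0.00762), in 14 and 18 of 18 settings. DPM1, which makes the mannose donor and is named after its values were seen, passed as lower than nonsense siRNA without nonsense siRNA replicate 2. In that fit DPM1 also passed as higher on nonsense siRNA than on untreated arrays, and did not pass between YAP siRNA and untreated arrays. Without the 3 arrays that stood apart both calls held, and DPM1 passed as higher on YAP siRNA than on untreated arrays. More of all genes passed as lower than nonsense siRNA in both fits than with all arrays.

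Of the 24 LSM, Sm and U4/U6 protein genes 0 passed by limma against nonsense siRNA or untreated cells with all arrays. Without nonsense siRNA replicate 2, however, 6 passed as lower than nonsense siRNA, namely LSM5, LSM6, SNRPD1, SNRPE, SNRPF and SNRPG, the Sm genes being named after their values were seen, and the same 6 passed without the 3 arrays that stood apart. Of all 18417 genes 816 and 772 passed as lower in these fits, beside 480 with all arrays. Those 6 genes and LSM8 passed in both fits as higher on nonsense siRNA than on untreated arrays, where 1031 and 1555 of all genes did. Against untreated cells 0 of the 24 passed as lower in either fit. Without the 3 arrays 3 passed as higher, where 980 of all genes did. The ring partners of LSM3 were at 0.00 (LSM2), 0.04 (LSM4), -0.11 (LSM5), -0.20 (LSM6), 0.08 (LSM7) and -0.01 (LSM8) against nonsense siRNA, and the median of the list was -0.03. Without nonsense siRNA replicate 2, LSM5 was at -0.24 (adjusted p = 0.0252) and LSM6 at -0.36 (0.00393), while LSM2, LSM4, LSM7 and LSM8 did not pass. SNRPE, an Sm protein gene, had the lowest difference of the list. Its signal was 9.34, 9.18 and 8.98 on YAP siRNA arrays, against 9.93, 8.75 and 10.1 on nonsense siRNA arrays and 8.60, 9.02 and 9.07 on untreated arrays. It was at -0.42 against nonsense siRNA (adjusted p = 0.449), at -0.83 without nonsense siRNA replicate 2 (0.000400), and at 0.27 against untreated cells (0.626). The 7 genes of splice site recognition and UHMK1 substrates, SF1 at -0.13 and CDKN1B at 0.03 among them (both named after their values were seen), also had 0 that passed against either control with all arrays, with medians of -0.05 and 0.03. On YAP siRNA arrays CDKN1B passed as higher than untreated cells without untreated replicate 3 and without the 3 arrays that stood apart. It also passed as higher on nonsense siRNA than on untreated arrays, without nonsense siRNA replicate 2 and without those 3 arrays.

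Patterns over the 9 arrays were compared by Pearson's r, as a description over arrays that share 3 groups, among 330 other genes whose SD over the arrays was at least 0.2. UHMK1 was most like DDX52 (r = 0.991), FZD5 (0.988) and LIN7C (0.988). PLOD2 was most like TSG101 (0.988), DENND6A (0.988) and RALGPS2 (0.985), and PDCD4 most like SLC16A7 (0.995), MCL1 (0.994) and LIN7C (0.987). For FAM91A1 they were CCDC117 (0.994), KDM5A (0.985) and CXADR (0.985), and for TMTC3 they were MCL1 (0.994), LYRM1 (0.992) and CFL2 (0.990). LSM3 had lower values, with DUT (0.972), ERI1 (0.970) and DNAJC15 (0.966). All of these genes were lower after YAP siRNA than after nonsense siRNA, with differences between -0.41 for KDM5A and -1.07 for LIN7C.

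Among the 6 themselves the 15 pairwise r values lay between 0.813, for TMTC3 and LSM3, and 0.986, for PDCD4 and TMTC3. With YAP1 the r was highest for TMTC3, at 0.988, and lowest for LSM3, at 0.798. The choice of genes that fall on the same 3 arrays sets most of such values, so they carry no test.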

How the data were processed

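Values are log2 array signals per probe set as the authors deposited them, a unit inferred from their range. No source used here gives the background correction, summarisation, normalization or genome build, and no further scaling was applied. Per the labels, total RNA of 9 samples was hybridised as biotinylated cRNA. Of 33297 probe sets, 19460 carried 1 gene in the platform annotation, 1754 several and 12083 none listed, and the first gave 18417 genes, each by its brightest probe set. The 6 members and the lists were chosen with earlier results of these data known.

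A linear model with the 3 group means (lmFit and eBayes of limma 3.58.1, R 4.3.3) took in all 9 arrays; tests were two-sided, with Benjamini-Hochberg adjustment over all genes and a threshold of 0.05; the fit was tested on simulated data. Named genes were the members, YAP1, the neighbours in the order of falls, up to 4 passing genes per list, fixed family members and the 3 most similar genes per member. Array number limits the precision. Promoters came from RefSeq (GRCh38.p14). Figures used Python 3.11.15 and matplotlib 3.10.9.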

Additional observations from a re-analysis of the deposited data

How the results depend on the processing

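The falls of the 6 genes against both controls kept their direction under all 18 alternatives, of which the fit without 3 arrays was chosen after seeing the data. The number of members lower than nonsense siRNA was 6 with any array left out, and lower than untreated cells 5 to 6. Between the controls 1 to 3 members passed as higher on nonsense siRNA arrays with an array left out, 0 with every probe set tested, and 4 without the 3 arrays. Among the 97 related genes, 4 to 17 passed against nonsense siRNA, 2 to 5 against untreated cells and 0 to 14 between controls with an array left out. Testing every probe set gave 4 and 2, and leaving out the 3 arrays gave 16, 12 and 21 in the 3 comparisons; quantile normalization gave 1 between controls. The causes were not tested, though testing every probe set adjusts over 33297 features and re-estimates the spread.

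Over all genes, 480 lower and 354 higher against nonsense siRNA became 408 and 460 with quantile normalization, 208 and 143 with every probe set, and 772 and 515 without the 3 arrays. Against untreated cells 269 and 300 became 181 and 350 with array medians subtracted, 99 and 84 with every probe set and 580 and 980 without the 3 arrays. Between controls 51 and 62 became 79 and 70 by quantile normalization, 17 and 32 by array medians, 0 and 0 with every probe set, 24 and 43 with 6 arrays and 764 and 1555 without the 3 arrays. With an array left out they ranged from 271 to 816 lower and 155 to 415 higher, 158 to 328 and 114 to 468, and 9 to 439 and 2 to 1031, in the same order of comparisons; the highest lower counts, and 1031, came without nonsense siRNA replicate 2.

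Same-numbered arrays did not deviate together (r between -0.337 and 0.344 in 9 pairs), so the numbers were not taken as pairs. A fit with the replicate block gave 6, 6 and 1 members and 7, 4 and 0 related genes in the 3 comparisons, and 28 lower and 37 higher genes between controls.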
